A study of Homo sapiens with 27 samples.

Results

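The matrix crosslinking enzymes described here are 10 human genes picked by their symbols. They are the tissue transglutaminase TGM2, the lysyl oxidases LOX, LOXL1, LOXL2, LOXL3 and LOXL4, the lysyl hydroxylases PLOD1 and PLOD2, and the prolyl 4-hydroxylase alpha subunits P4HA1 and P4HA2. Each gene had 1 row among the 40487 rows of the count table. A filter on low counts left 16611 rows for testing, and 9 of the 10 genes passed it. LOXL4 did not pass. The genes were chosen with results of these libraries already known. TGM2 had been the strongest riser with TGFB, with EGF+TGFB and with all 3 ligands, so its levels with TGFB are given below as a description, with no test, and it is left out of those counts.

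Transcripts were counted by RNA-seq in MCF10A, a non-tumorigenic epithelial line from the human breast that is long established. All 9 groups shared the same start: cells grown with horse serum, hydrocortisone, cholera toxin, insulin and 20 ng/ml epidermal growth factor (EGF) were plated on collagen-1, and after 6 h moved to a medium free of growth factors for 18 h. T0 was taken at that point. The other 8 groups were taken 24 h later, after phosphate-buffered saline (PBS), EGF, transforming growth factor beta (TGFB) or OSM, which is the interleukin-6 type cytokine oncostatin M, each ligand at 10 ng/ml, alone, in every pair or all together. Each group had 3 libraries, 27 in all, and the groups that a label joins with a plus sign received those ligands together. The labels do not say whether replicates were separate cultures, so p-values measure the spread between these samples, which may be technical. One cell line stands behind every value.

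Library totals ranged from 30.1 to 52.9 M counts (M, mega). All 10 epithelial markers examined, among them CDH1, KRT5 and TP63, were at 1 or more counts per M (CPM) in every group. Of 8 fibroblast markers, 3 (DCN, COL1A1 and FAP) reached 1 CPM in every group, while PDGFRA, LUM, THY1 and COL3A1 stayed at or below 0.316 CPM in every library. The summed fibroblast list moved with the ligands: it ran from 135 to 140 CPM in PBS, 54.3 to 65.8 in EGF, 206 to 238 in OSM, 254 to 258 in TGFB, 81.6 to 105 in EGF+OSM, 176 to 217 in EGF+TGFB, 508 to 554 in OSM+TGFB and 301 to 344 with all 3 ligands. The part of this movement in the results below was not tested. The 5 endothelial markers summed to 1.27 to 35.3 CPM and were highest in PBS, and KDR among them reached 31.2 CPM. The 5 immune markers summed to 26.2 to 119 CPM, mostly CD68 and CD14. Of these 2 lists, CDH5, PTPRC and CD3E stayed at or below 0.144 CPM in every library. CD79A reached 0.293 CPM, TEK 0.685, PECAM1 2.06 and VWF 3.52. The 4 adipocyte markers summed to 0.0542 to 6.70 CPM, with the highest sum in a TGFB library, and FABP4 among them reached 6.31 CPM.

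Collagen and elastin are made strong outside the cell by covalent bridges, and the enzymes that prepare and make these bridges act in order. Inside the cell, prolyl 4-hydroxylases modify prolines so that the collagen triple helix is stable, and lysyl hydroxylases modify lysines, PLOD2 in the telopeptides that later become crosslinked. After secretion, the lysyl oxidases oxidise lysine and hydroxylysine to reactive aldehydes that join neighbouring chains. TGM2 uses another chemistry and links glutamine to lysine side chains in fibronectin and other proteins. Several of these genes are textbook targets of TGFB signalling and of the hypoxia-inducible factors, whose binding site often holds the core ACGTG.

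Promoter windows are shown for the members whose windows held that core or the SMAD box CAGACA, since SMAD proteins carry the TGFB signal to DNA. RefSeq windows on GRCh38.p14, from 250 bases before to 50 bases after a transcript start, were found for 8 of the 10 genes, all but TGM2 and LOXL2, and numbered 11 in all, 3 of them for LOX. Each sequence runs 5′ to 3′ on the gene's strand (minus for all 4) and ends with the first 30 transcribed bases. Capitals mark ACGTG and CAGACA on either strand; read on the printed strand, matches on the other one appear as CACGT for the former motif and as TGTCTG for the latter.
LOX, chr5:122078230-122078509: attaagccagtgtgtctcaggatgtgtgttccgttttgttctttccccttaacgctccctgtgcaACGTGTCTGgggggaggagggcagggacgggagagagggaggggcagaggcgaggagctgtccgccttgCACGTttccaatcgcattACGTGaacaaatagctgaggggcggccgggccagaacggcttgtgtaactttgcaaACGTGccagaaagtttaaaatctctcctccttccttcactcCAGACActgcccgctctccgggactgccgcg
PLOD2, chr3:146161155-146161434: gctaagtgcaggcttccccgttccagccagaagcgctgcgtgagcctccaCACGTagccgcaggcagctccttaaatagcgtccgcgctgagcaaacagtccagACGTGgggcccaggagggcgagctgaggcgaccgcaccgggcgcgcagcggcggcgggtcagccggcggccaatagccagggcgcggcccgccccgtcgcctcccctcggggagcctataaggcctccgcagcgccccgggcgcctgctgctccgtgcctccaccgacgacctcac
P4HA1, chr10:73096837-73097116: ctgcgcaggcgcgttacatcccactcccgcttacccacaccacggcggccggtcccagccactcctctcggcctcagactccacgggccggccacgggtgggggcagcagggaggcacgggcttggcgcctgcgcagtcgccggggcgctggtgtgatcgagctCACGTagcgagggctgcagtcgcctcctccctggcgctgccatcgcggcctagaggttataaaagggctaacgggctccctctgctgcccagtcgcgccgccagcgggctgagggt
P4HA2, chr5:132227062-132227341: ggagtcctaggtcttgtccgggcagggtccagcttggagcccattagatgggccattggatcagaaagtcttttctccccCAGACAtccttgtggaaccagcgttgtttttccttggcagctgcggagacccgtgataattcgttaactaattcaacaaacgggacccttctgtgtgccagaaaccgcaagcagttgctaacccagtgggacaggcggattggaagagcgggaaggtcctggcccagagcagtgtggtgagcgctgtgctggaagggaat
The LOX window shown, the richest of its 3, held 4 matches to ACGTG and 2 to CAGACA, the outermost pair of them overlapping. The other LOX windows held 1 match to ACGTG each and 0 to CAGACA. PLOD2 held 2 matches to ACGTG and P4HA1 held 1, and P4HA2 held 1 match to CAGACA. Of all 35116 promoter windows, 21.4% held ACGTG at least once and 0.843% held it at least as often as the LOX window shown. CAGACA stood in 16.9% of windows, and in 1.95% at least as often as in that LOX window. TGACTCA (the AP-1 site, in 4.95% of windows) matched none of the 11 windows, and TTCNNNGAA (the STAT site, in 7.66%) matched 1 of them, that of LOXL3. A match is a description of the letters and not a measured binding site, and other forms of these sites were not searched for.

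LOX was the one member that EGF lowered strongly, and TGFB raised it. The gene (ENSG00000113083) lies on chromosome 5, 122063195 to 122078413, minus strand, by GENCODE v44 on GRCh38. In PBS its 3 libraries held 311, 308 and 290.3 CPM. With EGF they held 15.7, 17.1 and 15.3 CPM, far below every PBS library, and the level was 18.9-fold lower (log2 fold change -4.24 ± 0.20 SE, n = 3 per group, edgeR adjusted p = 8.32e-14). In bulk libraries such as these, fewer cells of a type and less RNA per cell cannot be told apart. OSM lowered LOX less, to 115, 129.9 and 85.0 CPM, a 2.75-fold lower level (log2 -1.46 ± 0.17, edgeR adjusted p = 2.14e-07). With EGF+OSM the libraries fell to 10.9, 13.9 and 10.9 CPM, 25.4-fold below PBS (log2 -4.67 ± 0.20, edgeR adjusted p = 1.44e-14).

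TGFB alone brought LOX to 539, 562 and 521 CPM, above every other library of the series and 1.78-fold above PBS (log2 0.83 ± 0.17, edgeR adjusted p = 0.000471). Where EGF was also present the gene stayed low. EGF+TGFB libraries held 56.6, 49.7 and 39.3 CPM, and libraries with all 3 ligands 58.0, 56.8 and 41.1 CPM. Every library with EGF was at or below 58.0 CPM of LOX, and every library without EGF in the ligand medium was at or above 85.0 CPM. OSM+TGFB libraries held 417, 443 and 289 CPM and overlapped PBS. That difference did not pass (log2 0.34 ± 0.17, edgeR adjusted p = 0.0824), and the OSM+TGFB libraries moved it both ways. Without replicate 3 it was 0.48 (edgeR adjusted p = 0.0131), and without replicate 2 it was 0.20 (edgeR adjusted p = 0.362). LOX was lower when OSM was added to TGFB, by -0.50 ± 0.17 on the log2 scale with all libraries (edgeR adjusted p = 0.0152). Without OSM+TGFB replicate 3 this change did not pass (-0.35, edgeR adjusted p = 0.0824). Replicate 3 was the lowest LOX library of every group but EGF+OSM, and with the replicate number in the fit the call was kept.

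Over the 9 groups the LOX order from lowest to highest was EGF+OSM, EGF, EGF+TGFB, EGF+OSM+TGFB, OSM, T0, PBS, OSM+TGFB and TGFB. Only EGF+TGFB with EGF+OSM+TGFB, and PBS with OSM+TGFB, overlapped as neighbours. The highest group mean was 45.4 times the lowest.

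**Figure D1:**
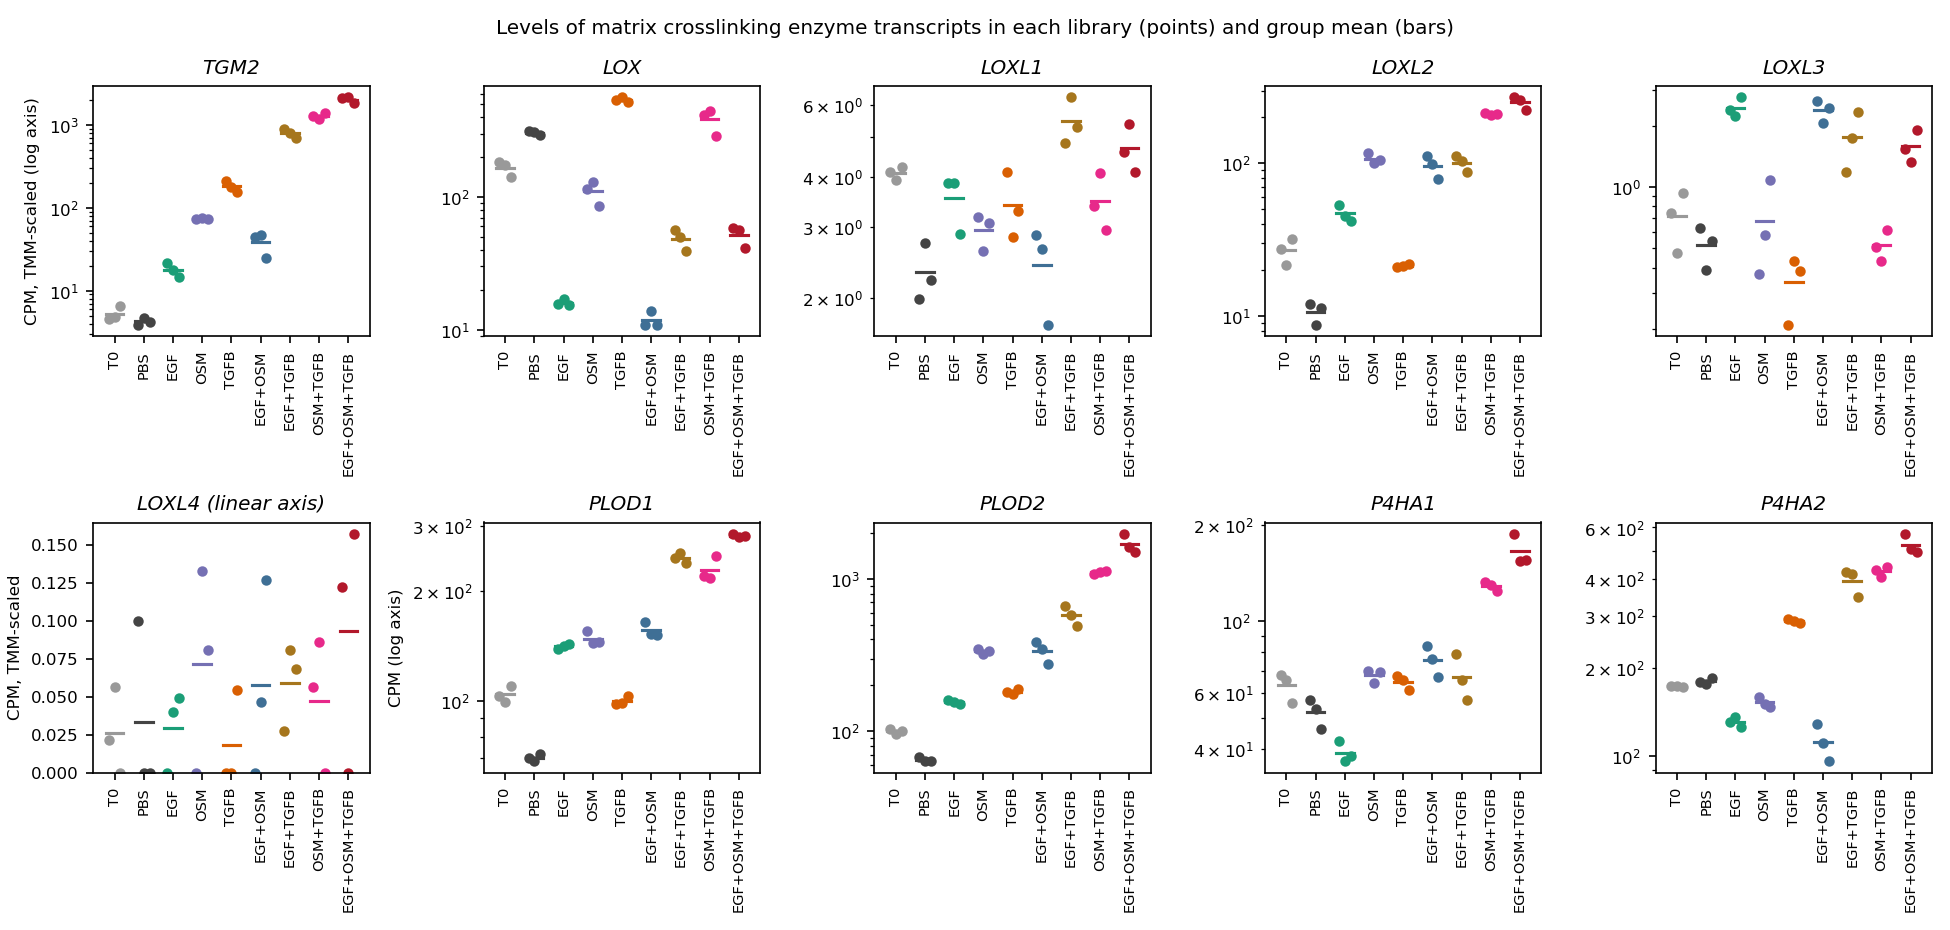
Level of each matrix crosslinking gene in each library (points, 3 per group) and the group mean (bars), in TMM-scaled counts per M, by group. The axes are logarithmic except for LOXL4, whose libraries held 0 to 6 counts. TGM2, PLOD2 and LOXL2 climb to their highest points with all 3 ligands, and LOX separates into groups with EGF (at or below 58.0 CPM) and without (at or above 85.0 CPM).

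LOXL2, a lysyl oxidase that also acts on basement membrane collagen, went the other way and was raised by every ligand. The gene (ENSG00000134013) lies on chromosome 8, 23296897 to 23425328, minus strand. Its PBS libraries held 11.9, 8.72 and 11.2 CPM, the lowest of the series. EGF libraries held 53.3, 45.4 and 42.1 CPM and OSM libraries 117, 100.2 and 105 CPM, so neither overlapped PBS. The rise was 4.44-fold with EGF (log2 2.15 ± 0.15, edgeR adjusted p = 3.27e-11). It was 10.2-fold with OSM (log2 3.35 ± 0.15, edgeR adjusted p = 5.01e-14). TGFB alone gave a smaller rise, to 20.9, 21.1 and 21.9 CPM (2.02-fold, log2 1.01 ± 0.15, edgeR adjusted p = 2.19e-05).

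EGF did not add to OSM for LOXL2. The EGF+OSM libraries held 111, 99.1 and 78.9 CPM and overlapped those of OSM, and EGF added to OSM gave -0.16 on the log2 scale with a 95% interval of -0.44 to 0.12 (edgeR adjusted p = 0.333). EGF added to TGFB, by contrast, gave 111, 103 and 87.5 CPM, 4.73-fold above TGFB alone (log2 2.24 ± 0.14, edgeR adjusted p = 1.05e-11). OSM+TGFB libraries held 215, 208 and 212 CPM. With all 3 ligands they held 271, 259 and 223 CPM, 23.7-fold above PBS (log2 4.57 ± 0.16, edgeR adjusted p = 1.23e-16). EGF added to OSM+TGFB did not pass (log2 0.25, 95% interval -0.03 to 0.52, edgeR adjusted p = 0.129). It passed in a fit to those groups only (edgeR adjusted p = 0.0148). The order was PBS, TGFB, T0, EGF, EGF+OSM, EGF+TGFB, OSM, OSM+TGFB and EGF+OSM+TGFB, and the neighbours TGFB with T0, EGF+OSM with EGF+TGFB, and EGF+TGFB with OSM overlapped.

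LOXL1, a lysyl oxidase tied to elastic fibres, was low throughout, from 1.72 to 6.28 CPM, or 68 to 310 counts per library. Its group means ran from 2.32 ± 0.377 CPM in PBS to 5.48 ± 0.734 CPM in EGF+TGFB (SD, n = 3), and 7 of 8 pairs of neighbours in the order overlapped. EGF+TGFB was 2.36-fold above PBS (log2 1.24 ± 0.19, edgeR adjusted p = 2.49e-06), and the libraries of the 2 groups did not overlap. The smaller rise with TGFB alone (log2 0.55 ± 0.19, edgeR adjusted p = 0.0268) did not pass without PBS replicate 1 (0.45), PBS replicate 3 (0.52) or TGFB replicate 1 (0.39), whose edgeR adjusted p-values were 0.116, 0.0804 and 0.169. The rise with OSM+TGFB (log2 0.58 ± 0.19, edgeR adjusted p = 0.00982) did not pass without PBS replicate 1 (edgeR adjusted p = 0.0522) or OSM+TGFB replicate 2 (edgeR adjusted p = 0.0805).

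LOXL3, a member of the same family at 0.209 to 2.76 CPM, followed EGF. Means in the 4 groups with EGF ran from 1.59 to 2.46 CPM, and means in the other 5 from 0.341 to 0.716 CPM. EGF raised it 4.76-fold over PBS, from 0.624, 0.387 and 0.538 CPM to 2.39, 2.24 and 2.76 CPM (log2 2.25 ± 0.33, edgeR adjusted p = 1.41e-06). TGFB did not move it past the test alone, where its libraries held 0.209, 0.432 and 0.383 CPM (log2 -0.58 ± 0.37, edgeR adjusted p = 0.242). Exons of HTRA2 on the opposite strand share 20.7% of the exonic bases of LOXL3, and those of LOXL1-AS1 share 9.21% of LOXL1. The library kit keeps strand, but the strand setting of the counting is not given in the sources used here, so reads of these pairs may not be told apart. LOXL4 had 52 counts in all, 0 in 10 libraries and at most 6 in any, and gets no fold change.

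Levels can be compared between genes only per length, so counts per M were divided by the kilobases (kb) of each gene's canonical transcript. On that scale LOX made up 93.7% ± 0.558 of the lysyl oxidase family in PBS and LOXL2 4.47% ± 0.713 (SD, n = 3). TGFB raised the family from 63.7 ± 2.20 to 114 ± 3.83 CPM per kb and left LOX at 93.6% ± 0.401. EGF brought the family down to 17.9 ± 1.70 CPM per kb, and in those libraries LOXL2 was 70.2% ± 2.25 and LOX 17.7% ± 1.75. LOXL2 reached 86.4% ± 1.38 in EGF+OSM and 84.2% ± 0.900 with all 3 ligands. In OSM+TGFB both were abundant, LOX at 55.9% ± 5.75 and LOXL2 at 42.9% ± 5.75. The family sum there, 134 ± 16.2 CPM per kb, was the highest mean of the 9 groups. Its libraries overlapped those of TGFB, with OSM+TGFB replicate 3 (115) below TGFB replicate 2 (118).

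**Figure D2:**
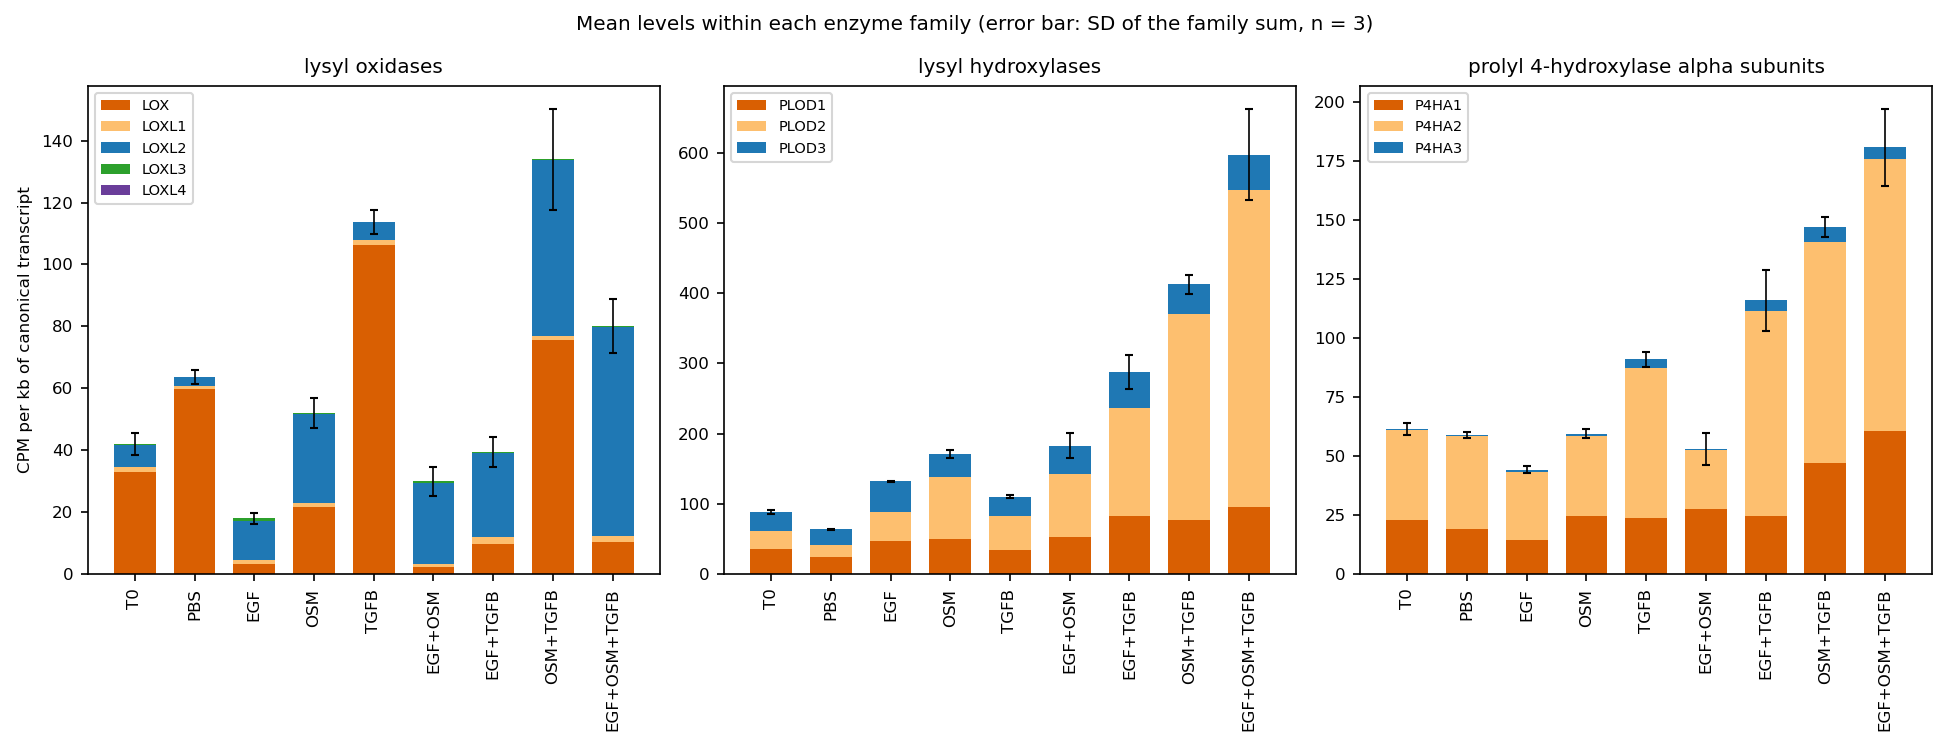
Mean level of each gene, in counts per M per kb of canonical transcript, stacked within 3 enzyme families, by group (error bars, SD of the family sum, n = 3). LOX fills most of the lysyl oxidase bar in PBS and TGFB and LOXL2 in the groups with EGF, and PLOD2 grows from 27.3% of the lysyl hydroxylases in PBS to 75.6% with all 3 ligands. PLOD3 and P4HA3 are shown to complete their families and are not members of the set.

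TGM2, the tissue transglutaminase, spanned the widest range of the set. The gene (ENSG00000198959) lies on chromosome 20, 38127385 to 38166578, minus strand. PBS libraries held 3.87, 4.69 and 4.18 CPM and T0 libraries 4.60, 4.76 and 6.46 CPM, and these were the only neighbours that overlapped. EGF alone raised it to 21.4, 17.9 and 14.7 CPM, 4.23-fold over PBS (log2 2.08 ± 0.22, edgeR adjusted p = 3.73e-08). OSM alone raised it to 72.9, 75.0 and 72.8 CPM, 17.3-fold over PBS (log2 4.11 ± 0.22, edgeR adjusted p = 1.03e-12). EGF lowered the OSM response. EGF+OSM libraries held 43.8, 46.5 and 24.9 CPM, none as high as any OSM library, and EGF added to OSM gave a 1.92-fold lower level (log2 -0.94 ± 0.18, edgeR adjusted p = 0.000116).

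The TGM2 values with TGFB belong to the choice of the gene and are given without a test. TGFB libraries held 213, 176 and 156 CPM. With EGF+TGFB they held 886, 803 and 694 CPM, and with OSM+TGFB 1265, 1184 and 1408 CPM. The 3 ligands together gave 2099, 2147 and 1814 CPM, a mean of 2020.0 ± 179.7 (SD), which was 474-fold above PBS (log2 8.89 ± 0.25). The order was PBS, T0, EGF, EGF+OSM, OSM, TGFB, EGF+TGFB, OSM+TGFB and EGF+OSM+TGFB, with a gap between the libraries of every pair of neighbours from T0 upward. EGF added to OSM+TGFB went with a higher TGM2 level (log2 0.65 ± 0.17), as did EGF added to TGFB (log2 2.13 ± 0.17) and EGF alone, so that OSM was the one of these 4 settings in which the level was lower with EGF.

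Among the lysyl hydroxylases, PLOD2, the enzyme of the collagen telopeptides, rose in every ligand group. The gene (ENSG00000152952) lies on chromosome 3, 146035139 to 146163725, minus strand. PBS libraries held 67.5, 63.5 and 64.1 CPM. EGF libraries held 160.2, 156 and 149.96 CPM, TGFB libraries 179.8, 176 and 189 CPM, and OSM libraries 345, 321 and 336 CPM, none of them near PBS. The single-ligand changes were 2.39-fold with EGF (edgeR adjusted p = 2.66e-10), 2.79-fold with TGFB (edgeR adjusted p = 1.35e-10) and 5.14-fold with OSM (edgeR adjusted p = 1.22e-14). EGF+OSM libraries, at 384, 346 and 277 CPM, overlapped those of OSM.

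Pairs with TGFB went higher for PLOD2. EGF+TGFB libraries held 666, 576 and 492 CPM and OSM+TGFB libraries 1075, 1113 and 1120 CPM. With all 3 ligands they held 1969, 1619 and 1504 CPM, 26.1-fold above PBS (log2 4.71 ± 0.12, edgeR adjusted p = 1.05e-19). EGF added to OSM+TGFB gave a 1.54-fold rise (log2 0.62 ± 0.10, edgeR adjusted p = 2.08e-05). The order was PBS, T0, EGF, TGFB, OSM, EGF+OSM, EGF+TGFB, OSM+TGFB and EGF+OSM+TGFB, with overlap between OSM and EGF+OSM only.

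PLOD1, the lysyl hydroxylase that acts mainly on the helical part of collagen, kept a narrower range, from 68.5 to 286 CPM. The gene (ENSG00000083444) lies on chromosome 1, 11934205 to 11975538, plus strand. Its means rose from 70.1 ± 1.57 CPM in PBS to 100.1 ± 2.74 with TGFB, 141 ± 2.48 with EGF, 148 ± 6.19 with OSM, 156 ± 6.91 with EGF+OSM, 228 ± 18.3 with OSM+TGFB, 246 ± 7.54 with EGF+TGFB and 282 ± 3.05 with all 3 ligands. Every one of these groups lay above PBS without overlap. The change was 4.03-fold with all 3 ligands (log2 2.01 ± 0.05, edgeR adjusted p = 4.79e-20). The neighbours TGFB with T0, OSM with EGF+OSM and OSM+TGFB with EGF+TGFB overlapped. Per kb, PLOD1 was 37.1% ± 0.983 of the lysyl hydroxylases in PBS and 16.0% ± 1.52 with all 3 ligands. PLOD2 went from 27.3% ± 0.546 to 75.6% ± 2.50 of the family, whose sum went from 63.5 ± 0.830 to 597 ± 64.9 CPM per kb. PLOD3, the third lysyl hydroxylase gene, rose from 63.8 ± 1.98 to 141 ± 1.93 CPM (log2 1.14 ± 0.05, edgeR adjusted p = 8.78e-17).

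P4HA2, a catalytic alpha subunit of collagen prolyl 4-hydroxylase, divided by TGFB. The gene (ENSG00000072682) lies on chromosome 5, 132190147 to 132295315, minus strand. PBS libraries held 178, 177 and 185 CPM. EGF libraries (131, 136 and 126 CPM), OSM libraries (159.7, 151 and 148 CPM) and EGF+OSM libraries (129, 111 and 96.2 CPM) were all lower. The changes were 1.37-fold lower with EGF (log2 -0.46 ± 0.08, edgeR adjusted p = 1.34e-05), 1.18-fold lower with OSM (log2 -0.24 ± 0.08, edgeR adjusted p = 0.0108) and 1.60-fold lower with both (log2 -0.68 ± 0.08, edgeR adjusted p = 2.65e-08). TGFB libraries held 294, 289 and 285 CPM, EGF+TGFB libraries 423, 415 and 349 CPM and OSM+TGFB libraries 430.4, 406 and 441 CPM. With all 3 ligands they held 571, 507 and 493 CPM, 2.91-fold above PBS (log2 1.54 ± 0.08, edgeR adjusted p = 1.06e-14). Every library with TGFB was at or above 285 CPM of P4HA2 and every library without it at or below 185 CPM. The neighbours EGF+OSM with EGF and EGF+TGFB with OSM+TGFB overlapped.

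P4HA1, the other alpha subunit in the set, changed by at most 1.34-fold with single ligands. The gene (ENSG00000122884) lies on chromosome 10, 73007217 to 73096974, minus strand. Its lowest libraries were those of EGF, at 42.3, 36.6 and 38.0 CPM, against 56.8, 53.2 and 46.3 CPM in PBS (1.34-fold lower, log2 -0.42 ± 0.11, edgeR adjusted p = 0.00154). OSM was 1.30-fold higher (edgeR adjusted p = 0.00385). The TGFB rise of 1.24-fold (edgeR adjusted p = 0.028) did not pass with upper-quartile scaling (edgeR adjusted p = 0.052), with no low-count filter (0.0827) or without any 1 of PBS replicates 2 and 3 and TGFB replicates 1 and 2 (0.0544 to 0.151). The pair of OSM and TGFB raised it clearly, to 133, 129.8 and 124 CPM (2.47-fold, edgeR adjusted p = 2.98e-10), and all 3 ligands to 187, 154 and 155 CPM (3.18-fold, log2 1.67 ± 0.11, edgeR adjusted p = 2.73e-12). From PBS to EGF+OSM every pair of neighbours in its order overlapped. P4HA3, the third alpha subunit gene, rose from 0.262 ± 0.148 CPM in PBS to 11.5 ± 1.33 CPM with all 3 ligands. P4HB, the shared beta subunit, rose from 461 ± 32.6 to 1614 ± 73.9 CPM (log2 1.81 ± 0.06, edgeR adjusted p = 2.59e-18).

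**Figure D3:**
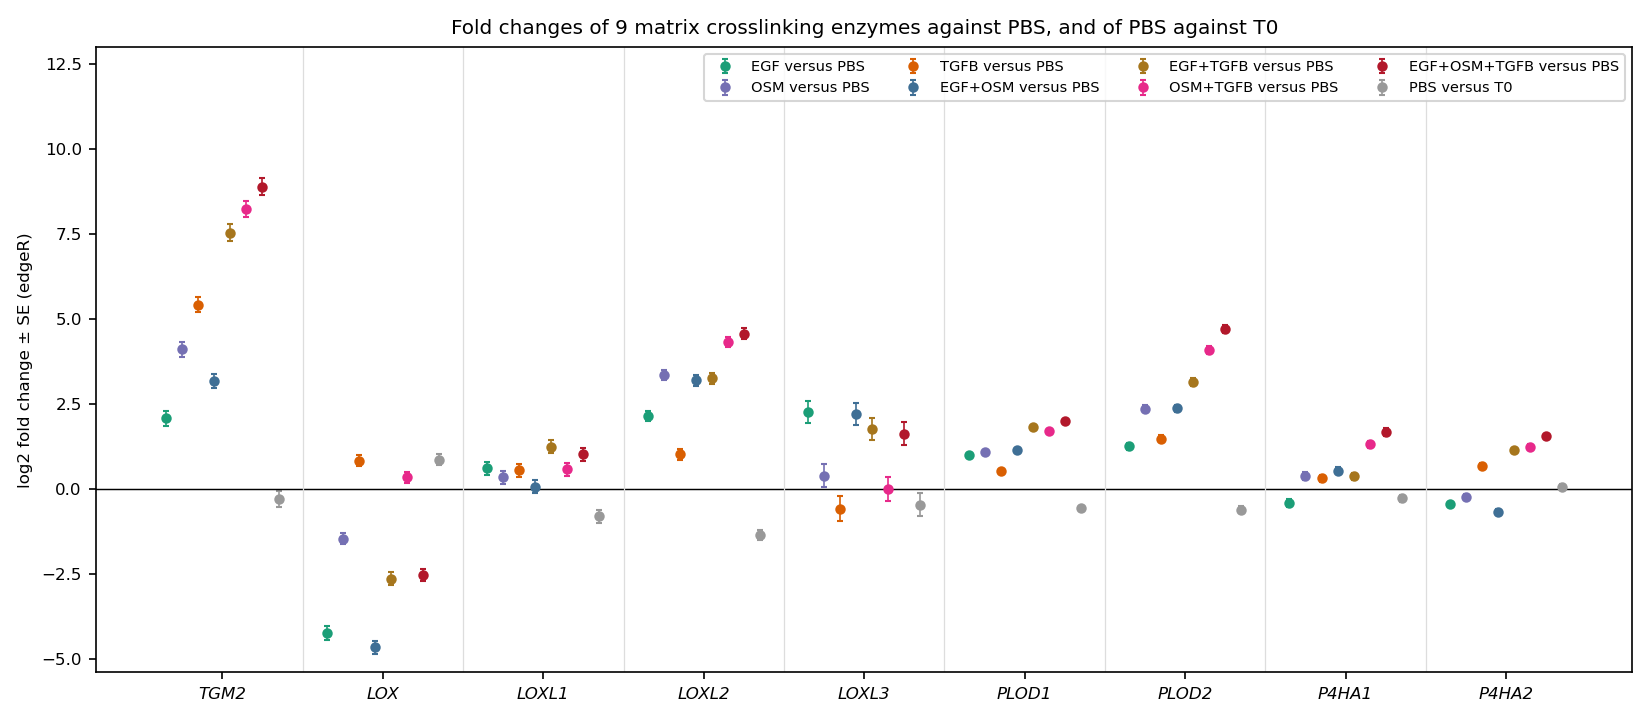
Log2 fold change of each of 9 members against PBS in the 7 ligand groups, and of PBS against T0 (points, fitted values; bars, 1 SE; edgeR, all 27 libraries). LOX is the member far below 0 in the groups with EGF, LOXL2, PLOD1 and PLOD2 lie above 0 in every ligand group, and P4HA2 changes sides with TGFB. The TGM2 points with TGFB are a description.

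How many members passed the test has to be read beside how many of all rows did, since these ligands moved much of the transcriptome. A member is counted where its edgeR adjusted p was under 0.05. With EGF, 9 of 9 members passed, 6 higher and 3 lower, against 70.8% of all rows (33.8% higher and 37.0% lower). With OSM 7 of 9 passed, 5 of them higher, against 61.0% (32.4% higher and 28.5% lower). With EGF+OSM 8 of 9 passed, 6 of them higher, against 75.0% (36.6% higher and 38.4% lower). These shares lay not far above the background. With TGFB alone, 7 of 8 members passed, all of them higher, against 33.5% of all rows (18.9% higher and 14.7% lower). Leaving out 1 library gave counts of 5 to 7. With EGF+TGFB 8 of 8 passed, 7 of them higher, against 71.3% of all rows (35.0% higher and 36.3% lower). With OSM+TGFB 6 of 8 passed, all higher, against 63.5% (33.1% higher and 30.5% lower). With all 3 ligands 8 of 8 passed, 7 of them higher, against 72.1% (36.6% higher and 35.5% lower). LOX was the 1 member lower than PBS in EGF+TGFB and with all 3 ligands. The median log2 fold change of the members was 1.65 with all 3 ligands, beside 0 over all rows, and 0.62 with TGFB, beside -0.01.

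PBS differed from T0 in 6 of 9 members, 1 higher and 5 lower, beside 32.9% of all rows (15.1% higher and 17.8% lower). Over these 24 h without ligand LOX rose 1.82-fold (log2 0.86 ± 0.17, edgeR adjusted p = 0.000416). LOXL2 fell by 1.35, LOXL1 by 0.81, PLOD2 by 0.62 and PLOD1 by 0.57 on the log2 scale, with edgeR adjusted p-values of 6.31e-07, 0.00153, 7.29e-05 and 9.65e-09. The lower P4HA1 level (log2 -0.28 ± 0.11, edgeR adjusted p = 0.0493) lay at the threshold and did not pass under most of the alternatives run, among them other size factors (edgeR adjusted p = 0.0594). TGM2, LOXL3 and P4HA2 did not pass (edgeR adjusted p = 0.387, 0.317 and 0.63).

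The design allows the change with TGFB to be read against 4 backgrounds: no other ligand, EGF, OSM and EGF+OSM. For P4HA2 the log2 change with TGFB was 0.69 ± 0.08 alone, 1.59 ± 0.08 on EGF, 1.48 ± 0.08 on OSM and 2.22 ± 0.08 on EGF+OSM. For LOX it was 0.83 ± 0.17, 1.60 ± 0.18, 1.80 ± 0.17 and 2.12 ± 0.19. For PLOD2 it was 1.48 ± 0.11, 1.90 ± 0.10, 1.72 ± 0.10 and 2.34 ± 0.11. In each of these 3 genes the fitted change was smallest with TGFB alone and largest on EGF+OSM, as it was in P4HA1 and PLOD1. For PLOD2 and PLOD1 the difference between the change on OSM and that with TGFB alone did not pass. It was 0.24 and 0.11 on the log2 scale (edgeR adjusted p = 0.261 and 0.306). LOXL1 and LOXL2 had their smallest fitted change on OSM, but its difference from that with TGFB alone did not pass (edgeR adjusted p = 0.458 and 0.932). Added to EGF, TGFB raised 7 of 8 members (52.1% of all rows passed, 25.8% higher and 26.4% lower). Added to OSM it raised 6 of 8 (48.8%, 24.6% higher and 24.2% lower), and added to EGF+OSM 7 of 8 (58.8%, 30.4% higher and 28.4% lower). LOXL3 did not pass in any of the 4, and LOXL1 did not pass on OSM. The rise of LOXL1 on EGF (log2 0.63 ± 0.18, edgeR adjusted p = 0.00521) did not pass without EGF+TGFB replicate 2 (0.46, edgeR adjusted p = 0.0685).

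**Figure D4:**
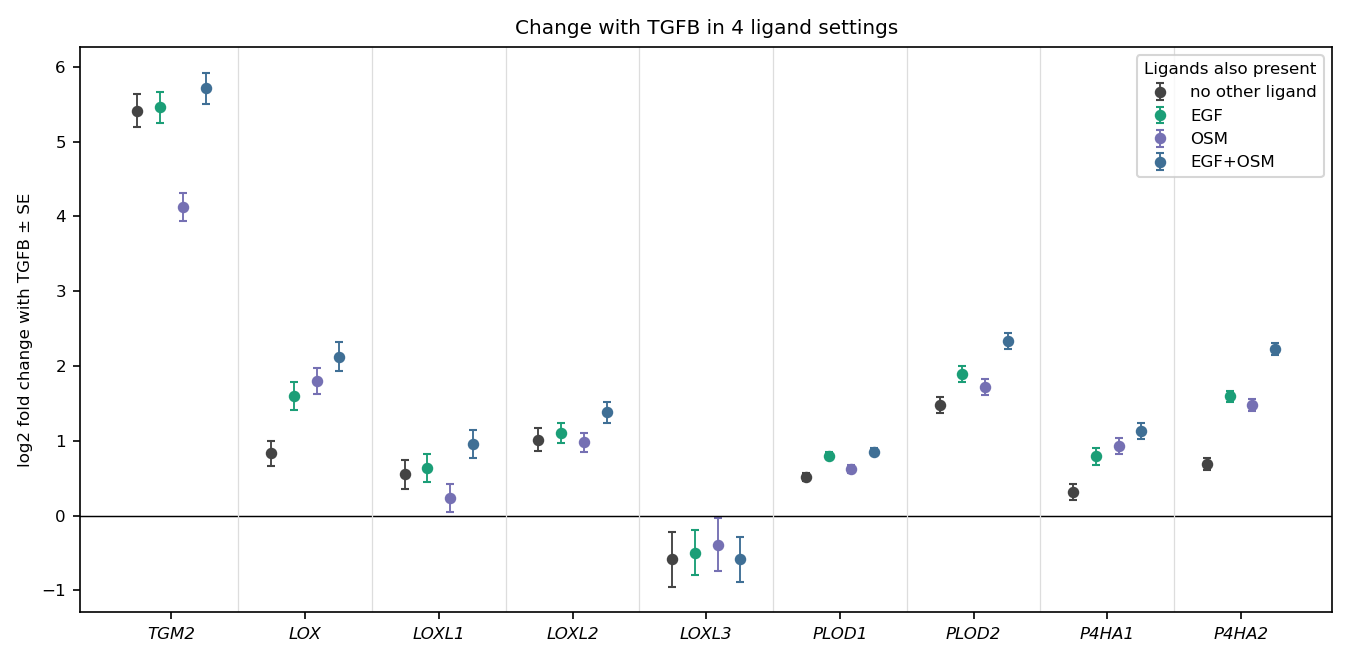
Log2 change with TGFB for each of 9 members, alone and on top of EGF, OSM or both (points, fitted values; bars, 1 SE). LOX, PLOD1, PLOD2, P4HA1 and P4HA2 lie lowest with TGFB alone and highest on EGF+OSM, and LOXL1 and LOXL2 lie lowest on OSM. For PLOD1, PLOD2, LOXL1 and LOXL2 the difference between the change on OSM and that with TGFB alone did not pass. LOXL3 did not pass the test in any of the 4, and the TGM2 points, between 4.13 and 5.72, are a description.

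EGF and OSM added to other ligands raised some members and lowered others. EGF added to OSM changed 4 of 9 members (59.4% of all rows, 28.7% higher and 30.7% lower): LOXL3 was higher, and LOX, TGM2 and P4HA2 were lower. EGF added to TGFB changed 7 of 8 (66.8%, 32.7% higher and 34.1% lower), 6 of them higher, and LOX was 11.1-fold lower (log2 -3.47 ± 0.18, edgeR adjusted p = 9.94e-13). EGF added to OSM+TGFB changed 6 of 8 (50.1%, 25.2% higher and 24.8% lower), and LOX, 7.36-fold lower (log2 -2.88 ± 0.18, edgeR adjusted p = 1.11e-10), was again the only one that fell. P4HA1 rose there (log2 0.36 ± 0.10, edgeR adjusted p = 0.00624), but not past the test without EGF+OSM+TGFB replicate 1 (0.26, edgeR adjusted p = 0.0611).

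OSM added to EGF changed 7 of 9 members (33.0% of all rows, 16.6% higher and 16.4% lower), 5 of them higher, and P4HA1 was 1.94-fold higher (log2 0.96 ± 0.11, edgeR adjusted p = 3.09e-07). Without EGF replicate 1 or EGF replicate 2 only 4 of the 9 passed, since LOXL1 (-0.55), PLOD1 (0.15) and P4HA2 (-0.23 on the log2 scale) lay near the threshold, with edgeR adjusted p-values of 0.0268, 0.0272 and 0.0281. Without EGF+OSM replicate 3, LOXL1 was -0.36 (edgeR adjusted p = 0.185) and P4HA2 -0.13 (edgeR adjusted p = 0.236). OSM added to TGFB changed 6 of 8 (54.2%, 28.9% higher and 25.3% lower), 5 of them higher. OSM added to EGF+TGFB raised 5 of 8 (24.8%, 12.8% higher and 12.0% lower). These were LOXL2 (2.49-fold), PLOD2 (2.94-fold), P4HA1 (2.46-fold), P4HA2 (1.32-fold) and PLOD1 (1.15-fold). The PLOD1 change (log2 0.20 ± 0.05, edgeR adjusted p = 0.00378) did not pass without EGF+TGFB replicate 3 (0.14, edgeR adjusted p = 0.0822) or EGF+OSM+TGFB replicate 1 (0.16, edgeR adjusted p = 0.0574).

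A departure from additivity is the log2 change with a combination less the sum of its single-ligand changes. For EGF+OSM, 7 of 9 members departed (36.5% of all rows, 14.6% above and 21.9% below). Below the sum were TGM2 (-3.02 ± 0.28, edgeR adjusted p = 3.84e-08), LOXL2 (-2.31 ± 0.20, edgeR adjusted p = 8.89e-09), PLOD2 (-1.25 ± 0.15, edgeR adjusted p = 3.56e-07), PLOD1 (-0.93 ± 0.07, edgeR adjusted p = 4.05e-10) and LOXL1 (-0.90 ± 0.27, edgeR adjusted p = 0.0102). For these 5 genes EGF and OSM together gave less than both changes added. LOX (1.04 ± 0.26, edgeR adjusted p = 0.00335) and P4HA1 (0.58 ± 0.15, edgeR adjusted p = 0.00452) lay above the sum.

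For EGF+TGFB, 5 of 8 members lay above the sum (27.7% of all rows departed, 12.3% above and 15.4% below), but only P4HA2 (0.91 ± 0.11, edgeR adjusted p = 2.1e-06) passed whichever library was left out. The other 4 were LOX (0.77), PLOD1 (0.29), PLOD2 (0.42) and P4HA1 (0.48), with edgeR adjusted p-values of 0.0241, 0.00403, 0.0353 and 0.022. The count fell to 3 without PBS replicate 1 or EGF replicate 2, to 2 without EGF replicate 3 or EGF+TGFB replicate 1, and to 1 without EGF+TGFB replicate 2. For OSM+TGFB, 3 of 8 lay above the sum (21.5% of all rows departed, 8.85% above and 12.6% below): LOX (0.96 ± 0.24, edgeR adjusted p = 0.0055), P4HA1 (0.61 ± 0.15, edgeR adjusted p = 0.00524) and P4HA2 (0.79 ± 0.11, edgeR adjusted p = 1.67e-05). The same 3 genes lay above the sum with all 3 ligands, by 2.32 ± 0.34, 1.39 ± 0.21 and 1.55 ± 0.15, and LOXL2 (-1.94 ± 0.30) and PLOD1 (-0.59 ± 0.10) lay below it. Those 5 of 8 members compare with 45.9% of all rows (20.9% above and 25.0% below). LOX was below PBS in EGF+OSM, EGF+TGFB and with all 3 ligands (log2 -4.67, -2.64 and -2.54). Above the sum there means that LOX fell less than its summed single-ligand changes.

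The 3-way interaction, the part of the 3-ligand change that the pairs do not account for, passed in 0 of 8 members by edgeR's quasi-likelihood test (3.37% of all rows, 2.11% above and 1.26% below). At an unadjusted p under 0.05 the count was also 0, and DESeq2 gave 0. For TGM2 it was 1.54 ± 0.37 on the log2 scale, a description with no test.

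**Figure D5:**
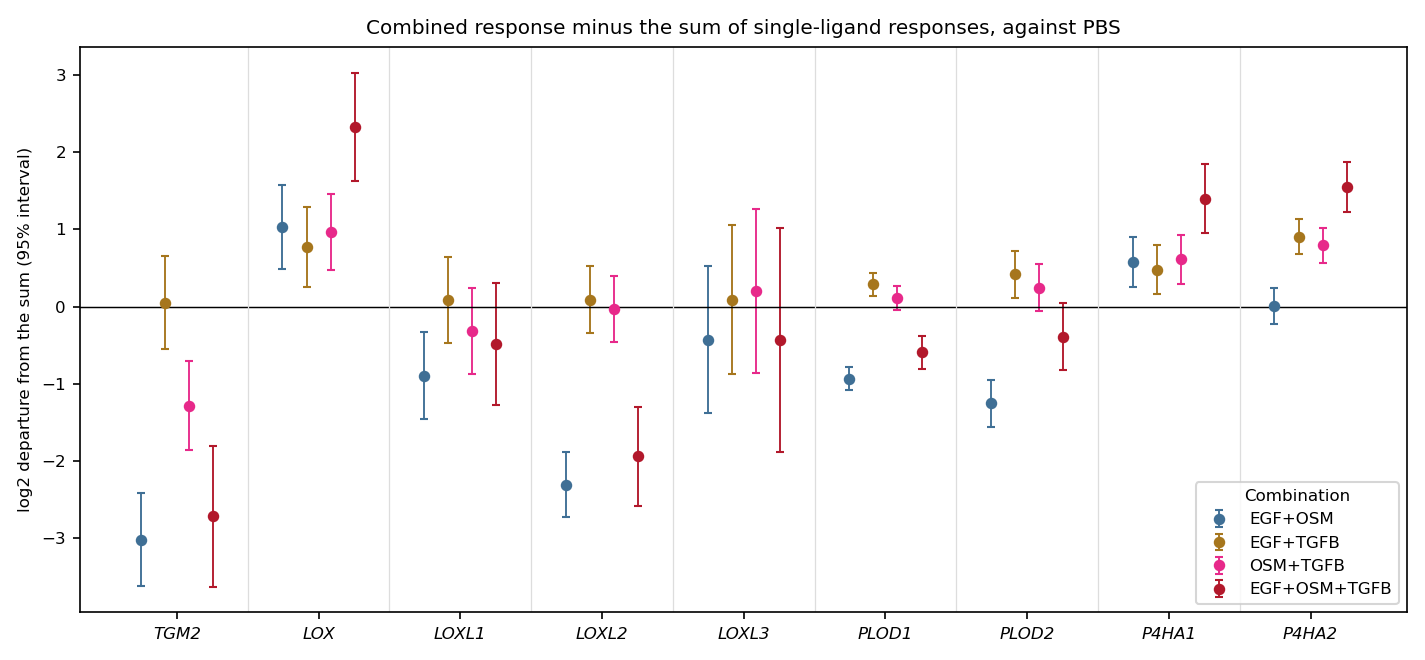
Departure from additivity on the log2 scale for the 3 ligand pairs and for all 3 ligands, for each of 9 members (points, fitted values; bars, 95% intervals). TGM2, LOXL2, PLOD1 and PLOD2 lie below 0 for EGF+OSM, and LOX, P4HA1 and P4HA2 lie above 0 for OSM+TGFB and for all 3 ligands. TGM2 points for combinations with TGFB are a description.

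The other genes of collagen modification and crosslinking moved in both directions. Of 30 partner genes, 28 passed the low-count filter. TGFB added to EGF+OSM raised 16 of them and lowered 3 (30.4% of all rows higher and 28.4% lower). EGF added to OSM raised 7 and lowered 10 (28.7% of all rows higher and 30.7% lower). With all 3 ligands 14 were higher and 9 lower than PBS (36.6% of all rows higher and 35.5% lower). Their median log2 fold change was 0.76, beside 0 over all rows. It was the same with F13A1, listed at 0 in PBS, set at the bound that 3 counts in that group give. SERPINH1, the collagen chaperone HSP47, rose from 56.6 ± 3.07 to 272 ± 1.54 CPM (log2 2.26 ± 0.07, edgeR adjusted p = 2.34e-18). Of the other transglutaminases, TGM1, which crosslinks the cornified envelope of keratinocytes, was 119.6 ± 20.5 CPM in PBS and 16.5 ± 0.249 with all 3 ligands (log2 -2.86 ± 0.27, edgeR adjusted p = 5.2e-09). TGM5, another epidermal transglutaminase, went from 19.3 ± 2.23 to 0.262 ± 0.0667 CPM (log2 -6.17 ± 0.30, edgeR adjusted p = 6.98e-15). Both fell while TGM2 climbed.

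Of 17 substrate genes, 15 passed the filter. TGFB alone raised 11 and lowered 1 (33.5% of all rows passed, 18.9% higher), and TGFB added to EGF+OSM raised 15 of 15 (58.8%, 30.4% higher). EGF+OSM raised 6 and lowered 7 (75.0%). With all 3 ligands 9 were higher and 3 lower than PBS (72.1%), with a median log2 fold change of 2.63. POSTN, the matricellular protein periostin, rose from 0.422 ± 0.0269 to 42.0 ± 3.93 CPM. Fibronectin FN1, a substrate of TGM2, held 132 ± 18.4 CPM in PBS, 76.2 ± 20.2 in EGF+OSM, 1964 ± 77.6 in TGFB and 3741 ± 622 with all 3 ligands (log2 4.83 ± 0.20, edgeR adjusted p = 6.82e-15). The basement membrane collagens COL4A1 (16.5 ± 1.57 to 524 ± 19.3 CPM) and COL4A2 (36.3 ± 4.89 to 855 ± 20.1 CPM) rose with all 3 ligands by 4.99 ± 0.14 and 4.56 ± 0.11 on the log2 scale. Their edgeR adjusted p-values were 3.9e-18 and 9.54e-20.

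Genes known to respond to hypoxia, a list without members, rose with OSM, and most of them also with EGF alone. OSM alone raised 13 of 15 and lowered 2 (61.0% of all rows passed, 32.4% higher), OSM added to EGF raised 15 of 15 (33.0%, 16.6% higher), and OSM added to EGF+TGFB raised 15 of 15 (24.8%, 12.8% higher). EGF alone raised 10 and lowered 3 (70.8%, 33.8% higher), and EGF added to TGFB raised 11 and lowered 3 (66.8%, 32.7% higher). EGF added to OSM raised 5 and lowered 4 (59.4%, 28.7% higher). TGFB alone raised 4 and lowered 5 (33.5%). The pH regulator CA9 held 0.0153 ± 0.0134 CPM in PBS, 10.5 ± 1.60 in OSM and 11.4 ± 3.07 with all 3 ligands. EGLN3, an oxygen-sensing hydroxylase, held 0.624 ± 0.0879, 52.4 ± 4.94 and 56.6 ± 11.5 CPM in those groups. The growth factor VEGFA held 24.4 ± 0.870, 127 ± 15.8 and 459 ± 19.8 CPM, and the glycolytic regulator PFKFB4 held 8.86 ± 1.23, 24.3 ± 3.18 and 54.5 ± 7.93 CPM.

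Of 12 TGFB-responsive genes, TGFB alone raised 10 (33.5% of all rows passed, 18.9% higher) and all 3 ligands raised 11 (72.1%, 36.6% higher). OSM alone, without TGFB, also raised 10 (61.0%, 32.4% higher), and none of the 12 fell past the test in these 3 groups. Among those that rose with all 3 ligands, CCN2, a matricellular protein, went from 1.94 ± 0.366 to 101 ± 3.41 CPM, LTBP2 from 28.8 ± 3.21 to 524 ± 31.2 and PMEPA1 from 46.4 ± 2.14 to 786 ± 41.9 CPM. Between T0 and PBS (32.9% of all rows), 4 of these 12 genes were higher and 5 lower in PBS, and of the 15 hypoxia-responsive genes 1 was higher and 9 lower. The first count, 9 in all, fell to 5 without PBS replicate 2, and the other, 10 in all, to 6 without T0 replicate 3 or PBS replicate 1. The lists were compiled from general knowledge, with results of these libraries known, and support no direction independently.

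Across the 9 group means, on the log2 scale, LOXL2, PLOD1 and PLOD2 had the most similar patterns among the members, with Pearson r from 0.945 to 0.946 for their 3 pairs. TGM2 was closest to PLOD2 (r = 0.931), and LOX ran opposite to LOXL3 (r = -0.970). Each r describes 9 points from shared libraries and has no p. Among all rows with a symbol and a mean of at least 1 CPM, the gene most like LOX was PBXIP1 (r = 0.992), which held 118 CPM in PBS, 29.7 in EGF and 180.3 in TGFB, followed by TMLHE (0.992). The closest to TGM2 were ARHGAP21 (0.992) and SLC46A3 (0.991), and to LOXL2 CSRP2 (0.996) and MAPK11 (0.995). CNTNAP1 was closest to PLOD2 (0.993). PLOD1 ran closest to UBA1 and CALR (both near r = 0.99), LOXL3 to PSMD7 and ITGB1BP1 and P4HA2 to ZNF329 and MACO1. The best matches of LOXL1 (CAPG, 0.946) and P4HA1 (ITM2C, 0.951) were weaker. With ranks in place of values, PBXIP1 and TMLHE to LOX and CNTNAP1 to PLOD2 reached a correlation of 1, the highest possible. Other genes tied with them there, so their rank among the best 2 is not settled. The other genes named here had rank correlations of 0.85 to 0.983. They were not among the 2 listed for their members by ranks, where ties were not resolved.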

How the data were processed

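Gene-level counts of 27 libraries came from 1 table that the authors deposited, whose values are handled here as estimated counts. Per the submitters' processing notes, the tools include Trim Galore 0.4.3, cutadapt 1.10, FastQC 0.11.5, kallisto 0.46.2 and R 3.5.0, with the builds GRCh38.p5 and hg38. How transcript values were summed to genes or rounded, and the strand setting, are not given in the sources used here. The deposited estimated counts were whole numbers, so rounding them changed nothing. Rows with a gene ID but no symbol (7165, 0.324% of counts) stayed in the tests, and 13156 rows at 0 in every library were removed by the filter.

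Counts were fitted with edgeR 4.0.16 (R 4.3.3) over all 27 libraries, 1 mean per group, with TMM scaling, filterByExpr and the robust quasi-likelihood test. P-values were adjusted by Benjamini-Hochberg over 16611 rows in each of 22 comparisons, and the threshold was 0.05. The fit had 18 residual degrees of freedom and a common biological coefficient of variation of 10.1%. Fold changes use a prior count of 0.125, SEs come from the F statistic, and ± beside a CPM is the SD. Replicates differed by 7.92 to 33.2 chi-square units per degree of freedom, so no 2 replicates of a group agree within sampling noise. Each was treated as its own sample, but this spread does not show that they were separate cultures. The procedure was also run on simulated counts in which few rows changed and replicates shared no effect. That run cannot test the scaling or the p-values where most rows change, as with EGF here. The members and lists were chosen with earlier results of these data known. Named are all 10 members, PLOD3, P4HA3 and P4HB, up to 4 genes of each list with the largest absolute change with all 3 ligands among those passing there with a mean of at least 1 CPM, and the 2 genes most like each member. Some genes that this rule would name are not reported here. Alternatives were DESeq2 (1.42.0), its size factors, upper-quartile scaling, no filter, a replicate block, non-robust estimation, summed symbols, fits to the compared groups only, and each library left out. Coordinates are from GENCODE v44 and windows from RefSeq.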

Additional observations from a re-analysis of the deposited data

How the results depend on the processing

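Each count of members and list genes was recomputed under 8 other settings and without each of the 27 libraries in turn. Under the 8 settings every count stayed within 1.5 times its reported value. Without 1 library, 4 counts moved further. Members departing from additivity with EGF+TGFB ranged from 1 to 5 (5 reported), members changed by OSM added to EGF from 4 to 7 (7 reported), hypoxia-responsive genes differing between PBS and T0 from 6 to 10 (10 reported) and TGFB-responsive genes differing there from 5 to 9 (9 reported). Where a group is left with 2 libraries, its spread is taken from the shared fit. Of 198 member changes and departures, 20 took the other sign under at least 1 alternative. None of the 20 passed the test in any fit, the largest was 0.43 on the log2 scale, and the text states no fold change for them, though the plots show their fitted values. The cause of these changes was not tested. Upper-quartile scaling moved the median of all rows for EGF+OSM+TGFB against PBS from 0 to -0.10, and the members' directions there are relative to that shift. At 30.1 to 52.9 M counts, LOXL4 (52 counts in all) could not be compared.

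Libraries with the same replicate number deviated from their group means with correlations of -0.07 to 0.30 (median 0.08), and 44 of 108 pairs exceeded 0.1. Pairs with other numbers ran from -0.28 to 0.16 (median -0.05), and 5 of 216 exceeded 0.1. The labels state no pairing, so the main tests left the numbers out, and their p-values do not allow for this shared deviation. Of the 27 libraries, 26 correlated best with their own number, a hint from the data and not from the design. With a replicate block no member lost its call, and 5 passed that had not: LOX in OSM+TGFB against PBS (0.32, edgeR adjusted p = 0.00823), P4HA1 for EGF added to OSM (edgeR adjusted p = 0.0477), LOXL1 for EGF added to OSM+TGFB (0.0391), LOX for OSM added to EGF (0.0114) and LOXL3 for TGFB added to EGF+OSM (0.0474).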
